A study of Sus scrofa with 80 samples.

Results

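The adenohypophysis, the anterior lobe of the pituitary gland, was measured in 16 pigs on 16 of the 80 arrays of the study, and these 16 arrays (AHYP) were chosen by the tissue given in the sample title. The reference tissues were hypothalamus (16 arrays), thyroid gland (16 arrays), testis (9 arrays), ovary (7 arrays) and backfat (16 arrays) of the same animals, so that each pituitary could be set against 4 other tissues of its own pig. Duroc (DU), Iberian (IB) and Large White (LW) pigs comprised 2 males and 2 females each, and Youli (YL), a cross with a SinoEuropean hybrid line, 3 males and 1 female. Animals are named by breed, sex and number (YLM20 is a Youli male). All pigs were kept together on common feed from weaning, fasted before euthanasia and sampled at a mean age by breed of 80 (YL), 83 (DU), 87 (LW) and 89 (IB) days. The breeds were bought from several companies, so that breed and supplier cannot be told apart. The whole anterior gland was used, dissected away from the posterior lobe, so each value is an average over all its cell types. Values are log2 intensities after GCRMA, a background correction and normalisation for this array type, and a level is only comparable within a probeset. A value under log2 3 is called near background here.

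The anterior pituitary holds 5 classical secretory cell types: somatotrophs (growth hormone), lactotrophs (prolactin), gonadotrophs (luteinizing and follicle-stimulating hormones), thyrotrophs (thyrotropin) and corticotrophs (corticotropin, cleaved from the POMC precursor). Each is driven or held back by factors released from the hypothalamus into the portal blood, and most are also restrained by hormones of the target glands. The 3 glycoprotein hormones share the alpha subunit CGA and differ in their beta subunit. All of the defining markers fixed for the tissue were found: LHX3 (log2 6.11 to 7.66), POU1F1 (7.53 to 10.06) and FSHB (7.71 to 14.61) were higher in every AHYP array than in any of the 64 other arrays, where they did not exceed 1.85, 3.03 and 2.76.

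Some arrays of other tissues stood apart. Pituitary hormone transcripts appeared outside the pituitary: in the thyroid array of YLM20, GH1 was at 14.70, PRL at 13.74, CGA at 12.74, POMC at 9.89 and LHB at 9.25, beside thyroglobulin (TG) at 14.27. TSHB was at 4.71 there, CHGB at 10.64 (at most 8.62 in the other thyroid arrays), NNAT at 11.57 (at most 9.95) and IGSF1 at 5.88 (at most 2.25), while POU1F1, LHX3 and FSHB were near background. In YLM19, GH1 reached 10.93 in the hypothalamus and 11.04 in the thyroid. Of the 64 other arrays, 24 had at least 1 of 7 hormones over log2 4, 9 had at least 3, and 1 had 6. The array labelled ovary of IBF25 lacked ovarian markers found in the other 6 females: INHA was at 1.54 there (9.99 to 12.1 in the others), FST at 2.22 (9.60 to 11.5) and ZP3 at 2.22 (8.37 to 11.1), while the epithelial keratin KRT8 was at 12.8 (5.56 to 10.3). In the backfat of YLM19 the striated muscle genes averaged 13.2, against 2.60 to 8.81 in the other backfat arrays. These animals were left out as an alternative chosen after seeing the data: without YLM19, YLM20 and IBF25, 113 genes were above every other tissue and 112 below, and 105 and 100 of these were among the genes called with all animals. DUF13, IBM24 and LWM02 were kept in, although they too had arrays outside the pituitary with at least 3 hormones over log2 4. PRL was at 7.35 in the DUF13 hypothalamus, 7.74 in the IBM24 hypothalamus and 6.64 in the LWM02 testis.

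With all 16 animals, 108 of 6765 named genes (1.6%) were above every other tissue and 105 (1.55%) were below. For this, the margin of a gene was its AHYP value minus the highest of the 4 other tissues of the same pig. A gene was called above at an adjusted p under 0.05 for a positive mean margin, with a mean difference of at least 1 log2 from each tissue. Genes called below had the mirror pattern against the lowest tissue. The margin of the 108 genes was 4 log2 or more in 17, between 2 and 4 in 18 and under 2 in 73, with a median of 1.60, whereas the median margin of all genes was -0.70. In bulk tissue a change in the share of a cell type and a change of RNA per cell cannot be told apart. The plot of all genes shows 7 hormone genes set apart from the rest, followed by genes such as KIAA1324, POU1F1 and ALOX15.

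**Figure D1:**
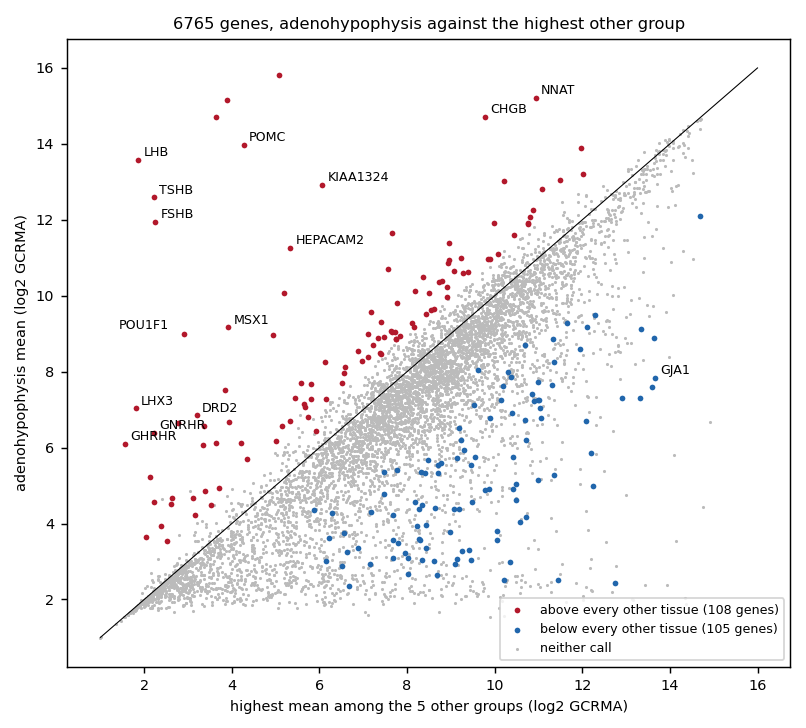
Mean log2 GCRMA value of each of 6765 genes in the adenohypophysis (vertical axis) against the highest mean among the 5 other groups (horizontal axis), with the line of equality. Red points are the 108 genes above every other tissue, blue points the 105 genes below, and hormone genes such as LHB, TSHB and FSHB lie farthest above the line.

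All 7 measured pituitary hormone genes were above every other tissue, and they held the 7 largest margins. LHB, the beta subunit of luteinizing hormone, was at log2 13.26, 13.61 and 13.92 (lowest, median and highest) in AHYP, and its highest value elsewhere was the 9.25 of the YLM20 thyroid. Its margin was 11.58 (SE 0.464, adjusted p = 4.4e-13 from limma, n = 16). The alpha subunit CGA lay between 14.46 and 14.98, with a margin of 10.63 (SE 0.772). Prolactin (PRL) lay between 14.94 and 15.57, with a margin of 10.40 (SE 0.872). Growth hormone (GH1) lay between 15.48 and 16.04, the top of the range of all arrays, with a margin of 10.25 (SE 0.769). None of these 4 genes had an AHYP value that overlapped with another tissue. TSHB, the thyrotropin beta subunit, ran over 10.19, 12.85 and 13.67, and its margin was 10.20 (SE 0.371). FSHB, the beta subunit of follicle-stimulating hormone, had the widest range of the 7, with 7.71, 11.50 and 14.61, and its margin was 9.65 (SE 0.547). POMC lay between 13.45 and 14.53 with a margin of 9.21 (SE 0.640). It was over log2 4 in 7 of 16 hypothalamus arrays (up to 10.42, in DUF13), a tissue with POMC neurons. In these 7 arrays GH1 was over log2 4 in DUF13, IBM24, LWM02 and YLM19, and it lay between 2.71 and 3.11 in DUM12, DUM15 and IBF25. Leaving out YLM19 and YLM20 lowered the SE of the margin for every hormone gene except FSHB, where it rose from 0.547 to 0.607. For POMC it changed little, from 0.640 to 0.613. Without these animals the margins were 12.08 (SE 0.086) for LHB, 11.68 (SE 0.381) for CGA, 11.51 (SE 0.535) for PRL and 11.27 (SE 0.389) for GH1 (n = 14). In YLM20 itself, the margin of GH1 was 1.30, that of PRL 1.48 and that of CGA 2.02, still positive in this animal.

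**Figure D2:**
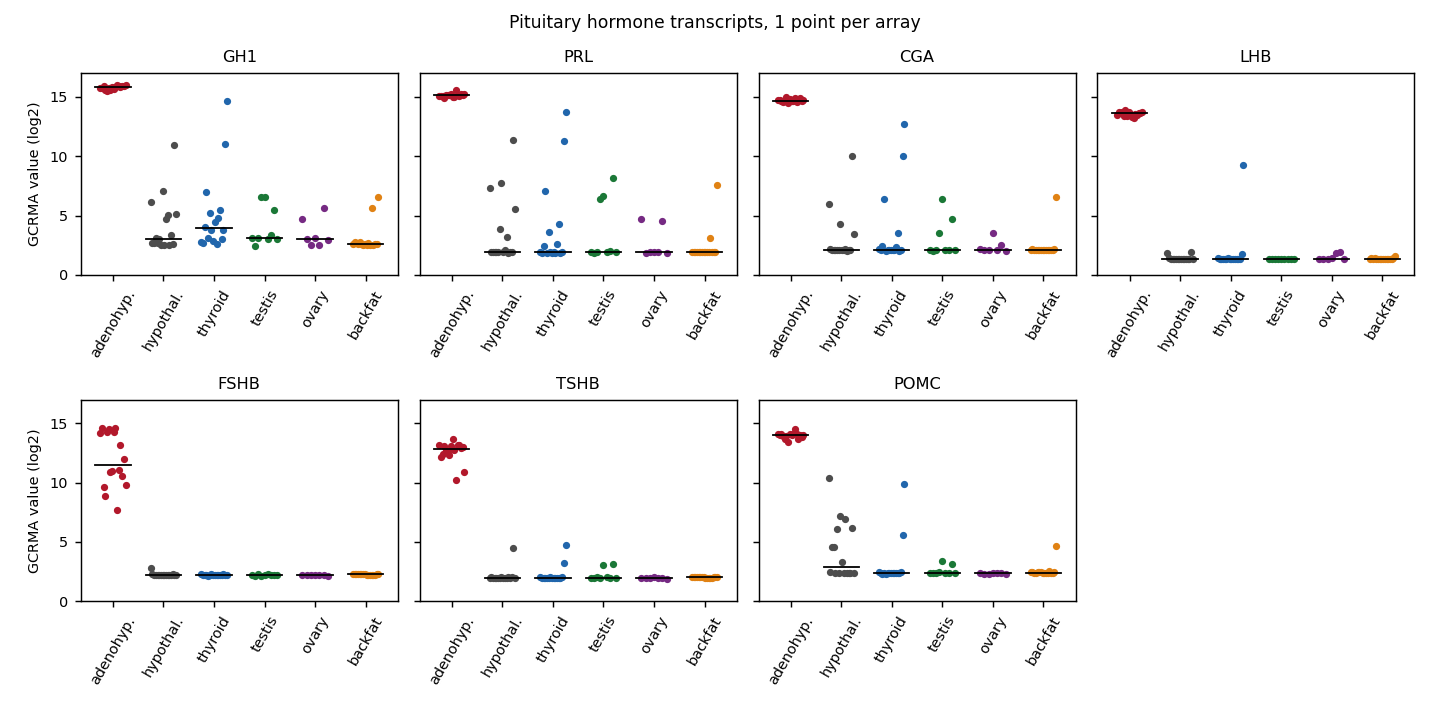
Log2 GCRMA values of 7 pituitary hormone genes, 1 point per array, with 6 groups from left to right (adenohypophysis, hypothalamus, thyroid gland, testis, ovary, backfat) and the group median as a line. Every adenohypophysis array lies above every other array for each gene, FSHB spreads from 7.71 to 14.61 within the tissue, and single thyroid arrays reach 14.70 for GH1.

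Of 34 transcription factors listed for the pituitary lineages, 12 were measured and 4 were above every other tissue (all genes: 1.6%), with a median margin of 0.60 beside the -0.70 of all genes. LHX3, a LIM homeobox factor needed for the formation of the gland, had a margin of 5.22 (SE 0.109, adjusted p = 1.3e-16 from limma) and was at most 1.85 in any other array. POU1F1 (Pit-1), which drives the somatotroph, lactotroph and thyrotroph lineages, had a margin of 6.05 (SE 0.182). Of its 5 probesets, 3 had the pattern with margins of 6.05 to 8.78 and the other 2 were near background in AHYP, at 2.98 and 2.14 on average. MSX1, a homeobox factor of craniofacial and pituitary development, lay between 8.45 and 9.89 in AHYP against at most 4.33 elsewhere, with a margin of 5.24 (SE 0.0886). A second MSX1 probeset was near background throughout. GATA2, a factor of gonadotrophs and thyrotrophs, had a smaller margin of 1.99 (SE 0.224), and its AHYP values of 5.97 to 9.34 overlapped with ovary and backfat. The array labelled ovary of IBF25 was at 6.97. AHYP minus ovary was 3.31 (SE 0.428) for GATA2 with this array and 3.64 (SE 0.348) without it. NR5A1 (SF-1), a gonadotroph factor that also drives steroidogenic cells, lay at 6.68, 7.74 and 8.50 in AHYP, whereas the testis of the males ranged over 7.09, 7.87 and 8.70. It exceeded hypothalamus by 4.75, thyroid gland by 4.81 and backfat by 4.83, but its difference from testis was -0.57. RXRG, a retinoid receptor of the pituitary, was higher than in hypothalamus by 1.79, yet its margin of 0.77 came with a difference of only 0.86 from backfat. The probesets that stood for FOXL2, NEUROD1 and SOX9 were near background in the pituitary. Such a value alone does not show that a gene is silent, as 2 POU1F1 probesets were near background beside 3 that were not.

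Receptors for hypothalamic factors were few on the array. Of 30 listed, 14 were measured and 3 were above every other tissue (all genes: 1.6%). The median margin was -0.05 beside the -0.70 of all genes. In AHYP 9 of the 14 were near background, a share that was not counted for all genes. GHRHR, the receptor for growth hormone-releasing hormone, lay at 3.95, 6.34 and 7.38 against at most 1.62 elsewhere, with a margin of 4.54 (SE 0.226, adjusted p = 7.6e-12 from limma). GNRHR, the gonadotropin-releasing hormone receptor, lay at 4.66, 6.23 and 8.43 against at most 2.27 elsewhere, with a margin of 4.17 (SE 0.253). DRD2, the dopamine receptor through which the hypothalamus restrains prolactin secretion, lay at 3.41, 7.57 and 8.46, and it overlapped with hypothalamus (up to 5.02) and ovary (up to 4.17). Its margin was 3.59 (SE 0.377). GHRHR and GNRHR did not overlap with any other tissue, and each of the 3 receptors ranged over more than 3 log2 among pituitaries. CRHR1, the receptor for corticotropin-releasing hormone, was at 3.33 to 3.80 in AHYP and at 3.45 to 4.05 in the other tissues, with full overlap, and the ghrelin receptor GHSR had an AHYP median of 2.17 and a highest value of 3.39.

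Receptors through which target glands feed back included 3 genes above every other tissue among 19 measured (all genes: 1.6%). Their median margin was -0.18 beside the -0.70 of all genes, and 8 were near background in AHYP. ESR1, the oestrogen receptor alpha, lay at 4.14, 6.49 and 8.06 in AHYP and at 4.16, 5.75 and 8.93 in ovary, the only other tissue above log2 3. Its margin was 2.51 (SE 0.428, adjusted p = 5.1e-05 from limma), but within the 7 females AHYP minus ovary was only 1.15 (SE 0.596, adjusted p = 0.174, limma). The array labelled ovary of IBF25 held the 8.93, and without it the difference was 1.70 (SE 0.350, adjusted p = 0.01 from limma, n = 6). The call of ESR1 was lost when females were tested alone, and on leaving out DUF13, IBF22 or YLF21. THRB, the thyroid hormone receptor through which thyrotropin is suppressed, lay at 3.50, 6.95 and 7.40, with a margin of 1.33 (SE 0.209) over a backfat range of 3.41 to 6.46. TGFBR3 (betaglycan), the inhibin co-receptor of gonadotrophs, had a margin of 1.29 (SE 0.216), at a median of 7.30 in AHYP against 5.54 in testis and 5.77 in backfat, the nearest tissues. The growth hormone receptor GHR was not above: its AHYP median was 5.07, against 6.99 in thyroid gland and 9.80 in backfat. The inhibin and follistatin genes that oppose activin in the gland were near background, with INHA at 1.49 to 1.55 and FST at 2.07 to 2.21. Of 24 local growth factors measured, none was above every other tissue (all genes: 1.6%) and IGF2 was below (all genes: 1.55%). IGF2 had a difference of -1.05 from the lowest tissue, though this did not hold when its probesets were averaged (-0.16).

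**Figure D3:**
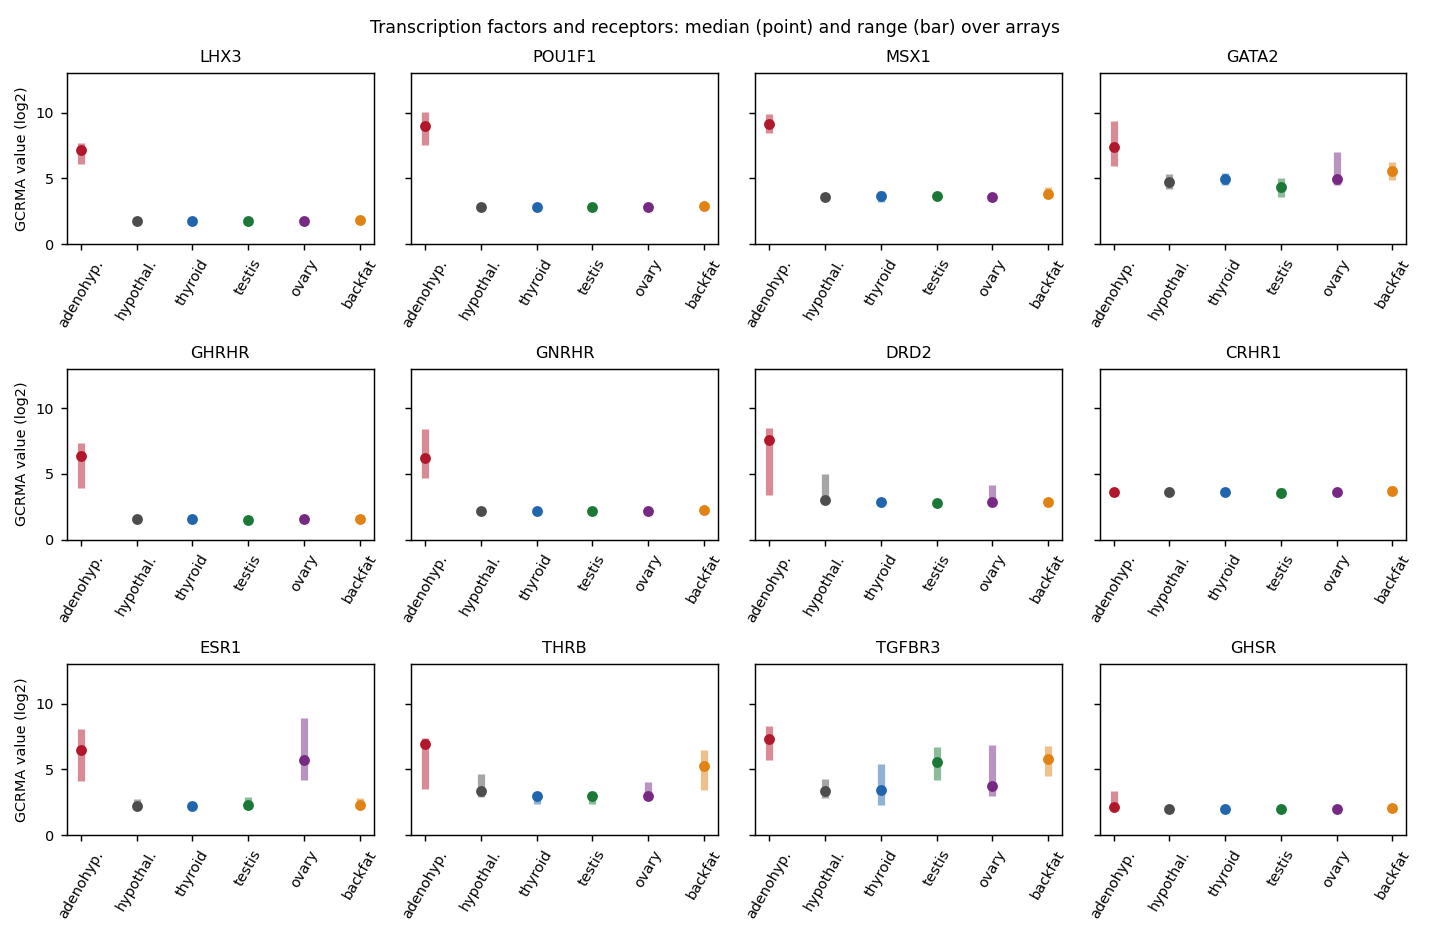
Median (point) and lowest to highest value (bar) of 12 transcription factors and receptors in log2 GCRMA units, by group, with the adenohypophysis leftmost. LHX3, POU1F1, MSX1, GHRHR and GNRHR separate the adenohypophysis from every other group, ESR1 shares its range with ovary, and CRHR1 and GHSR do not exceed log2 4.05 in any group.

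Of 14 measured genes of granule cargo and prohormone processing, proteins that fill and ripen the secretory granules, 8 were above every other tissue (all genes: 1.6%): CHGA, CHGB, NUCB2, PCSK1, QPCT, SCG2, SCG3 and SCG5. The list had a median margin of 1.15 beside the -0.70 of all genes. Chromogranin B (CHGB) lay between 14.45 and 14.97 in AHYP and between 9.33 and 10.58 in hypothalamus, with a margin of 4.85 (SE 0.0989, adjusted p = 9.6e-17 from limma). QPCT, which closes the N-terminal glutamine of peptides such as gonadotropin-releasing hormone into pyroglutamate, had a margin of 2.73 (SE 0.161). Secretogranin II (SCG2) had a margin of 1.92 (SE 0.154), and it was 11.86 higher than in testis. PCSK1, the convertase that cuts POMC, had a margin of 1.59 (SE 0.207), whereas PCSK2, the convertase that completes melanotropin, was lower than in thyroid gland (difference -2.93) and hypothalamus (difference -1.80), and its AHYP values of 2.74 to 5.78 were low.

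Among 11 exocytosis genes measured, 0 were above every other tissue, near the 1.6% of all genes, and the list median margin was -1.12. SNAP25, a plasma membrane SNARE protein, lay at 11.86 to 12.37 in AHYP and at 12.24 to 13.19 in hypothalamus, a difference of -0.51, but it exceeded thyroid gland by 6.35 and testis by 10.02. SYT1, a calcium sensor of vesicle fusion, was lower than in hypothalamus by a difference of -3.55 and higher than in every other tissue by at least 5.26 on average. SYT5, a related sensor, had a margin of 0.30 that did not pass. In cAMP and calcium signalling, 2 of 20 measured genes were above (all genes: 1.6%). The list median margin was -0.35, and 7 genes were near background in AHYP. The 2 genes above were RGS2, which switches off G protein signals, with a margin of 2.38 (SE 0.181), and ITPR1, a calcium release channel, with a margin of 2.32 (SE 0.334). ITPR1 ranged from 2.21 to 6.12 among pituitaries and was near background in all other groups.

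**Figure D4:**
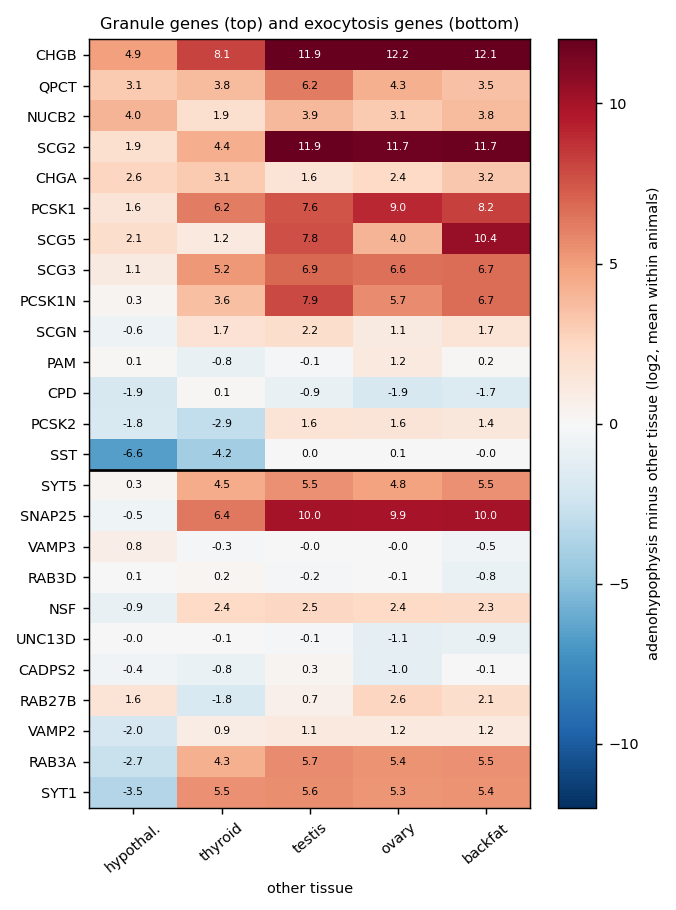
Mean within-animal difference, adenohypophysis minus the other tissue in log2 units, for 14 granule genes (above the line) and 11 exocytosis genes (below it), each ordered by margin. CHGB is red in every column, while SNAP25 and SYT1 are red against thyroid gland, testis, ovary and backfat but not against hypothalamus.

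Lists of the hormone cell lineages were called as follows. These lists were chosen with earlier results of these data known, and hormones and receptors stand in more than 1 of them. All 6 measured thyrotroph genes were above every other tissue (all genes: 1.6%), namely CGA, DIO2, GATA2, POU1F1, THRB and TSHB. DIO2, the deiodinase that activates thyroxine, had a margin of 1.40 (SE 0.23), at 2.36 to 5.33 in AHYP, and overlapped with thyroid gland (up to 4.76). Its call was lost without YLF21. Of 8 gonadotroph genes, 5 were above, of 8 somatotroph and lactotroph genes 5, and of 6 corticotroph and melanotroph genes 3 (all genes: 1.6%). The members called in these lists were already counted above among the hormones, factors, receptors or granule genes. Of 12 folliculostellate and stem cell genes measured, 0 were above, near the 1.6% of all genes. Several of them are general epithelial genes: EPCAM lay between 12.43 and 12.78 in AHYP and between 12.69 and 13.24 in thyroid gland, and KRT8 and CDH1 differed by -0.59 and -0.67. KRT18 differed by 0.27. All 4 genes were higher than in hypothalamus, by 5.35 to 9.02 on average. S100B, a marker of folliculostellate cells and astroglia, lay at 9.42 to 10.32, lower than hypothalamus by a difference of -3.23 and higher than thyroid gland by 2.94.

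A further list held the machinery that moves new proteins into the endoplasmic reticulum and folds them. Of 38 measured genes of this list, 24 were higher than in hypothalamus and 0 lower (all genes: 13.1% higher, 12.4% lower), with a median difference of 1.48. Against thyroid gland, 4 were higher and 1 lower (all genes: 9.71% higher, 13.9% lower), with a median difference of 0.09. HYOU1 and DNAJB9, chaperone and co-chaperone of the reticulum, were the only members above every other tissue, with margins of 1.14 (SE 0.114) and 0.93 (SE 0.123). CREB3L2, a factor that raises secretory capacity, was higher than in hypothalamus by 3.15, with a difference of -0.76 from thyroid gland. Immediate early and heat shock genes rise with handling of tissue. Of 11 measured, 0 were above every other tissue, near the 1.6% of all genes. Against hypothalamus 4 were higher and 0 lower (all genes: 13.1% and 12.4%), and against thyroid gland 5 and 2 (9.71% and 13.9%). Against testis the counts were 3 and 4 (12.2% and 16.7%), against ovary 1 and 5 (10.7% and 13.9%), and against backfat 1 and 5 (14.5% and 17.4%). EGR1 ranged from 7.05 to 12.55 among pituitaries.

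The other genes among the 25 with the largest margins had no hormone or lineage role in the lists. KIAA1324, a membrane protein of endosomes and lysosomes, lay at 12.65, 12.92 and 13.18 in AHYP and was nearest in hypothalamus (4.19 to 7.40), with a margin of 6.68 (SE 0.182, adjusted p = 2.9e-15 from limma). Its 2 probesets had margins of 6.67 and 6.68. HEPACAM2, an adhesion protein of the immunoglobulin family, lay between 10.57 and 11.85 and did not overlap with any tissue (margin 5.66, SE 0.139). ALOX15, a lipoxygenase of arachidonic acid, lay between 8.49 and 11.39 and had a margin of 5.74 (6.13 without IBF25, SE 0.531), with ovary at up to 8.90, in the array labelled ovary of IBF25, which overlapped with AHYP. NNAT, an imprinted gene coding for a small membrane protein, lay between 14.63 and 15.60 and had a margin of 4.21 (SE 0.24) over hypothalamus. IGSF1, whose loss in humans causes central hypothyroidism, had a margin of 3.98 (SE 0.138) over a hypothalamus range of 6.94 to 8.70, and was 9.29 higher than in thyroid gland. HTR2B, a serotonin receptor, lay between 4.77 and 7.38 against at most 3.10 elsewhere (margin 3.86, SE 0.147). KCNJ5, an inwardly rectifying potassium channel opened by G proteins, had a margin of 3.77 (SE 0.317). Without IBF25, whose array labelled ovary was at 8.99, it was 4.01 (SE 0.224). C1QTNF12, a secreted protein that increases insulin sensitivity in mice, had a margin of 3.07 (SE 0.334), and its AHYP values ran from 2.38 to 6.82. VMO1, ZNF232 and LOC100525750 completed the 25, with margins of 3.83, 3.26 and 3.91.

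Among the 105 genes below every other tissue, GJA1, BCAR3 and FABP3 had the largest deficits. GJA1 (connexin), a gap junction protein, lay between 6.73 and 9.51 in AHYP and at 10.47 or more in every other array, with a difference of -3.28 from the lowest other tissue of the animal (SE 0.207, adjusted p = 2.4e-10 from limma). FABP3, a fatty acid carrier, was near background in AHYP, with 1.75, 2.48 and 2.995, and its difference from the lowest tissue was -2.85. NID2, a basement membrane protein, differed by -2.57, and CLDN5, the tight junction protein of endothelium, by -2.39, with AHYP at 2.25 to 3.08. BCAR3, TMEM26, FOLH1B, PIP4K2A and VCAN followed with differences of -2.99, -2.38, -2.37, -2.24 and -2.16, although VCAN, a matrix proteoglycan, was at -0.55 and not called when its probesets were averaged. APOA1, an apolipoprotein, differed by -2.14. Of 13 endothelium and pericyte genes measured, 13 were lower than in backfat and 12 lower than in thyroid gland (all genes: 17.4% and 13.9%), and 2 were higher and 3 lower than in hypothalamus (all genes: 13.1% and 12.4%). PECAM1 differed by -3.95 from backfat, -2.96 from thyroid gland and 1.32 from hypothalamus, and RGS5, a pericyte gene, by -2.51, -2.19 and -2.44.

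Markers of other tissues were used to see what else the dissected lobe held. The posterior lobe transcripts vasopressin (AVP) and oxytocin (OXT) were at medians of 1.90 and 1.58 in AHYP, against 10.50 and 7.24 in hypothalamus, although in LWF05 AVP reached 3.94. Of 18 neuronal genes measured, 0 were above every other tissue and 13 were lower than in hypothalamus, and 7 were higher in each comparison with thyroid gland, testis, ovary and backfat. Of all genes, 12.4% were lower than in hypothalamus, and 9.71%, 12.2%, 10.7% and 14.5% were higher than in the other four. Neuronal genes among the 7 were SNAP91 (median 9.71), NEFL (9.06) and STMN2 (8.21). In AHYP 9 of the 18 were near background, namely AGRP, GNRH1, GRIN1, HCRT, NPY, PMCH, SST, TRH and GAD1. GAD1, the enzyme for GABA synthesis, was at 1.98. CARTPT, a neuropeptide also known in endocrine cells, ranged from 2.98 to 7.76. The oligodendrocyte gene MOBP was at a median of 3.38 but reached 7.32 in IBM24, 7.12 in LWF05 and 6.93 in YLM19. In these arrays the astrocyte gene GFAP was at 5.59, 5.28 and 5.85 (median 3.20). MOBP was raised in the remaining Iberian pituitaries too, at 5.31 (IBF22), 5.10 (IBF25) and 5.94 (IBM23), with GFAP at 2.87, 4.33 and 3.55. Every other pituitary had MOBP at 4.05 or less. Its breed test did not pass (adjusted p = 0.385, limma). Both MOBP and GFAP were at 13.27 or more in hypothalamus. Leaving out each animal in turn gave 868 to 906 higher and 825 to 846 lower genes. All 6 thyroid follicle genes and all 12 testis genes measured were near background, as were 10 of 12 ovary genes and 8 of 12 lymphocyte genes. The share of all genes near background in AHYP was not counted, so these counts alone do not show that a tissue was absent. Of the receptors for hypothalamic factors, 9 of 14 were near background too. TG was at most 2.27. Of the lymphocyte list, CD79B, the B cell receptor chain, was above every other tissue, at 2.77, 4.92 and 6.60 in AHYP against at most 2.80 elsewhere, so that its lowest value overlapped (margin 2.04, SE 0.268). CD3E was at 2.20 to 2.30. In the order of protein-coding genes of the reference assembly Sscrofa11.1, CD79B is the direct neighbour of GH1. TSPAN2, a tetraspanin with a margin of 1.00 (SE 0.152), is the direct neighbour of TSHB, but it was not called when its probesets were averaged (0.56). These were the 2 neighbouring pairs among 107 of the 108 genes that the reference table held.

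Each comparison with a single tissue used the same 16 pituitaries, so the counts are not independent. AHYP was higher than hypothalamus in 885 genes and lower in 839, of which TF, the iron carrier transferrin, had the largest deficit (difference -11.03). It was higher than thyroid gland in 657 and lower in 942, with the largest deficit in TG (-12.48). Against testis, 826 genes (12.2%) were higher and 1129 (16.7%) lower, with INSL3, a Leydig cell hormone, at -12.27. Against ovary, 725 genes (10.7%) were higher and 942 (13.9%) lower, with DAPL1 at -8.46. Without the IBF25 pair these were 769 and 1027. Against backfat, 980 genes (14.5%) were higher and 1179 (17.4%) lower, with the fat cell hormone ADIPOQ at -11.16.

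Among the 16 pituitaries the hormone genes differed sharply in how much they varied. The SD over animals was 0.138 for CGA, 0.148 for PRL, 0.165 for GH1, 0.18 for LHB and 0.248 for POMC, beside a median SD of 0.168 of the 768 genes with an AHYP mean of log2 10 or more. GH1 lay at the top of the measured range, where the array may resolve differences poorly, which was not tested. TSHB had an SD of 0.889, through LWM02 (10.19) and YLM20 (10.93), while the other 14 animals lay at 12.16 or above. FSHB had an SD of 2.31, the largest of the 768 genes. It lay at 7.71, 10.59 and 11.95 in the 9 males and at 13.15, 14.27 and 14.61 in the 7 females, with no overlap, and the male minus female difference was -4.11 (SE 0.537, adjusted p = 0.00397 from limma with breed as covariate). A second FSHB probeset gave -4.52 (SE 0.514). LHB (0.03, SE 0.0896) and CGA (-0.07, SE 0.0767), the other gonadotropin subunits, did not pass (adjusted p = 1 for both from limma).

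Sex differed in few genes of the tissue: 7 genes (0.103%) were higher and 37 (0.547%) lower in males than in females. Without DUF14, DUM15, IBM24 or LWF05, only 20, 21, 22 and 24 genes were lower in males. Without DUM15, IBM24 or LWM02, 3 genes were higher in males, and without DUM12 or LWF05, 4. Of the 108 genes above every other tissue, HEPACAM2 was higher in males (0.64, SE 0.124), and FSHB, GATA2, PCSK1, C1QTNF12, MESDC2 and RFX1 were lower. GATA2 lay at 5.97 to 7.36 in males and at 7.98 to 9.34 in females, without overlap, with -1.55 for males minus females (SE 0.273, adjusted p = 0.0269, limma). C1QTNF12 lay at 2.38 to 5.59 in males and at 5.74 to 6.82 in females (difference -2.27, SE 0.377). PCSK1 lay at 9.24 to 10.80 in males and at 11.06 to 12.64 in females (difference -1.43, SE 0.266), also without overlap. Calls for GATA2, PCSK1, C1QTNF12 and HEPACAM2 were lost on leaving out single animals: the adjusted p of limma ranged from 0.023 to 0.068 for GATA2, from 0.0273 to 0.126 for PCSK1, from 0.00905 to 0.0526 for C1QTNF12 and from 0.0221 to 0.116 for HEPACAM2, while for FSHB it ranged from 0.00202 to 0.014. Differences of ESR1 (-1.28, SE 0.375, adjusted p = 0.271 from limma) and GNRHR (-0.55, SE 0.409) did not pass. The smallest p of all belonged to EIF1AY, a Y-linked translation factor (difference 7.61, SE 0.0424).

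Breed differed in 19 genes (0.281%), and in 0 of the 108 genes above every other tissue. The count depended on single animals, with 48 genes without LWF06, 30 without LWM02 and 12 without YLF21, and leaving out dim probesets gave 29. The 5 with the smallest p were RNF149, HNRNPH3, ABLIM1, NPM2 and PITRM1, with adjusted p of 0.00183 to 0.00823 from limma. The probeset that stands for POU1F1 did not pass for breed (adjusted p = 0.0879, limma) or for sex (male minus female difference 0.55, SE 0.198, adjusted p = 0.445, limma). Another of its probesets passed for both, with an adjusted p of 0.0101 for breed and, at a sex difference of like size (0.56, SE 0.0717), of 0.00381 for sex (limma).

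**Figure D5:**
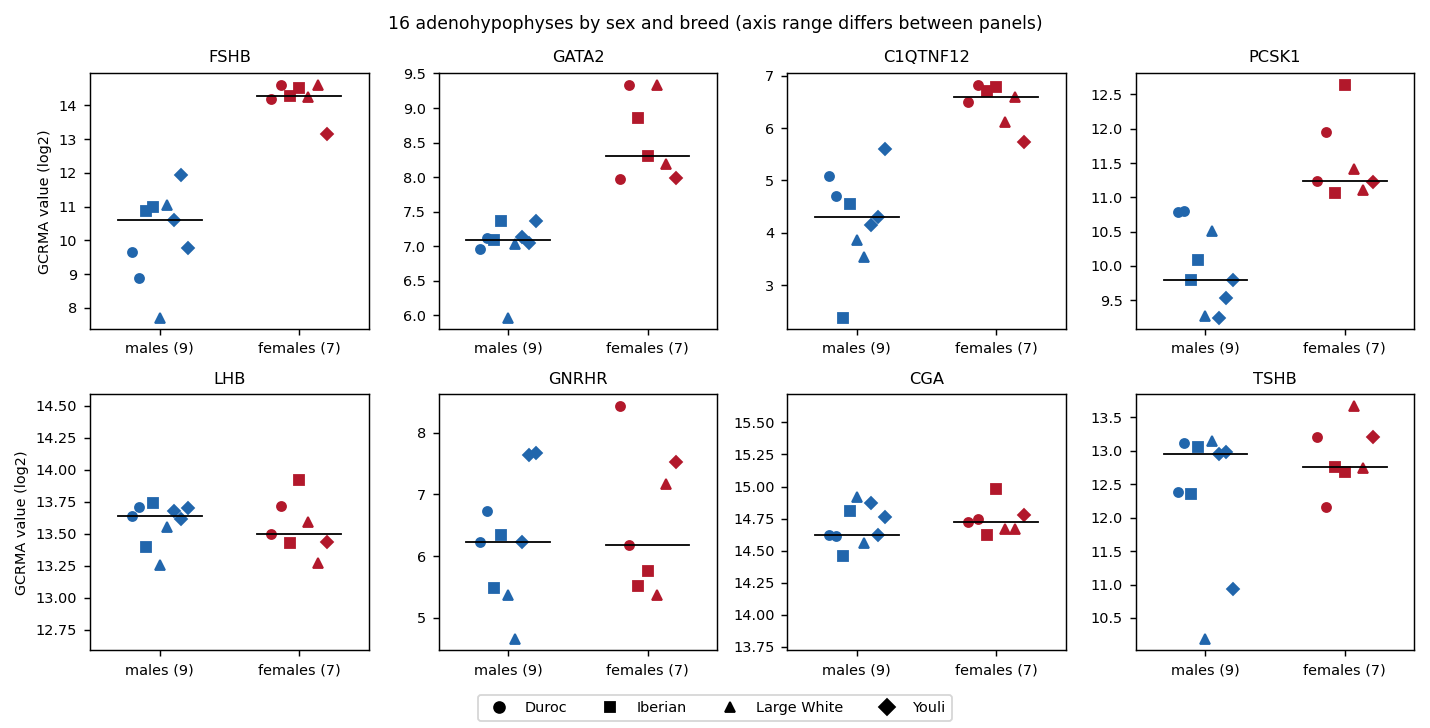
Log2 GCRMA values of 8 genes in the 16 adenohypophyses, with 9 males left of 7 females, 1 symbol per animal by breed, and the median of each sex as a line (vertical axes differ between panels). Males and females do not overlap for FSHB, GATA2, C1QTNF12 and PCSK1, and they overlap for LHB, GNRHR, CGA and TSHB.

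Hormone transcripts were then set against the receptor of their releasing or inhibiting factor across the 16 pituitaries, for 5 pairs. None passed: for GH1 and GHRHR, Pearson's r was 0.527 (permutation p = 0.0359, adjusted p = 0.179) and Spearman's rho 0.459 (permutation p = 0.0758), and r was 0.379 without the 2 arrays farthest from the median of GHRHR. For PRL and DRD2, r was 0.125 (permutation p = 0.631, adjusted p = 0.788) and rho 0.028 (permutation p = 0.918). For LHB and GNRHR, r was 0.0227 (permutation p = 0.934, adjusted p = 0.934) and rho 0.171 (permutation p = 0.528). For POMC and CRHR1, r was 0.132 (permutation p = 0.612, adjusted p = 0.788) and rho 0.0427 (permutation p = 0.873), with CRHR1 at 3.80 or less. Because FSHB fell into separate groups by sex, FSHB and GNRHR were compared within sex, with r = 0.155 in 9 males (exact permutation p = 0.696) and r = -0.377 in 7 females (exact permutation p = 0.439). All tests were two-sided. The SD of GH1, PRL, LHB and POMC was 0.148 to 0.248, beside the median SD of 0.168 of genes with an AHYP mean of log2 10 or more.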

How the data were processed

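Total RNA of each tissue was hybridised to the Affymetrix Porcine GeneChip, 1 array per pig and tissue. The authors scanned the arrays with GCOS and normalised the 80 arrays in 1 run of GCRMA. Deposited values are log2 intensities and were used unchanged. Of 24123 probesets, 124 controls were left out. The array annotation gives 1 symbol to 10069 of the other 23999 and several symbols to 198, and 13732 are not named here. The probeset with the highest mean over all arrays stood for each of 6765 genes (9961 probesets matched the reference table). No other genome or sequence was used.

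The animal number in the titles paired arrays. In the thyroid gland, where 11 of 16 titles conflict with the breed and sex fields, titles were kept because deviations of an animal in thyroid and AHYP correlated at 0.352 on average (-0.0219 between animals, 16 of 16 best with their own). Mean r was 0.324 for hypothalamus (16 of 16 best with their own), 0.258 for backfat (10 of 16), 0.175 for testis (8 of 9) and 0.141 for ovary (6 of 7).

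Within-animal differences were tested with limma 3.58.1 (R 4.3.3; intercept, eBayes), two-sided, with Benjamini-Hochberg adjustment over 23999 probesets at 0.05, and a threshold of 1 log2. Breed and sex were tested within AHYP in 1 model. Correlations used 100000 permutations, or all orders below 10 animals. The tests were checked on simulated data. Alternatives were no animal block, quantile normalisation, median centring, dim probesets left out (log2 4), a threshold of 2 log2, the mean over probesets, gonads left out, each sex alone, no covariate and each animal left out. The number of arrays limits the precision.

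Genes named are the 25 largest margins, the 10 largest deficits, members of lists with the largest margins and some of those past the sex or breed test. Other genes were named after their values were seen. The members and lists were chosen with earlier results of these data known.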

Additional observations from a re-analysis of the deposited data

Results flagged for a closer look

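For the 7 hormone genes, 42 groups of 4 to 9 samples were examined (each breed within AHYP, testes, ovaries), and 2 had a sample far from the others. Chance gives about 1 in 20 groups, so 2 of 42 is near the number that chance alone would give. TSHB was at log2 10.93 in the pituitary of YLM20, whereas the nearest other Youli animal was at 12.95. CGA was at 3.56 in the array labelled ovary of IBF25, against at most 2.47 in the other ovaries.

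The male minus female difference of 3 genes differed between AHYP and the mean of hypothalamus, thyroid gland and backfat of the same animals, as an interaction in limma. It was more negative in AHYP by -4.09 for FSHB (SE 0.529, adjusted p = 0.00881), by -1.57 for GATA2 (SE 0.237, adjusted p = 0.0173) and by -2.26 for C1QTNF12 (SE 0.371, adjusted p = 0.0288). Over all genes, 23 passed this test. It used the same AHYP arrays as the sex test above, where the differences were -4.11 for FSHB and -1.55 for GATA2. FSHB was at most 2.76 in every other tissue, so subtracting those tissues removed little. For these genes the interaction is therefore not independent evidence of a sex difference.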

How the results depend on the processing

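Without the replicate block (80 arrays in 6 groups) 109 genes were above and 108 below every other tissue, of which 106 and 103 were the same genes, and only ESR1 among the named genes was lost. A threshold of 2 log2 left 36 genes above and 17 below, and 282 higher and 384 lower than hypothalamus, 293 and 363 for thyroid gland, 358 and 440 for testis, 262 and 421 for ovary, and 413 and 586 for backfat. Leaving out the gonads gave 166 above and 191 below, since fewer tissues had to be exceeded. For breed, leaving out dim probesets gave 29 genes, and without a covariate 4 genes were higher in males. The correlation of LHB and GNRHR was -0.299 on residuals of breed and sex (0.0227 as reported). Leaving out 1 animal at a time gave 105 to 113 genes above and 101 to 112 below, 868 to 906 and 825 to 846 for hypothalamus, 651 to 670 and 933 to 950 for thyroid gland, 808 to 839 and 1097 to 1165 for testis, 693 to 769 and 873 to 1027 for ovary, 978 to 995 and 1159 to 1194 for backfat, 12 to 48 for breed, and 3 to 7 higher and 20 to 35 lower in males. The 48 came without LWF06 and the 12 without YLF21. No named gene reversed. Quantile normalization and median centring moved no count by over 1.5 times, but PCSK1 and HEPACAM2 lost their sex call under quantile normalization, HEPACAM2 also without a covariate, and DNAJB9 its call under centring (margin 0.84). Of 69 named genes called, 6 were lost in females alone and 5 with probesets averaged (THRB at 0.65 and SRP19 at 0.63 among them). Leaving out YLM19 and YLM20, chosen after seeing the data, lost none. Centring moved the median difference of all genes to 0.118 from ovary (0.00564 as deposited) and -0.178 from backfat (-0.0451).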

Other observations

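Further genes above every other tissue were chosen after their values were seen and were not tested as a group. The vesicle coat proteins SEC24D (margin 1.78, SE 0.0903), SEC13 (1.21, SE 0.0709), SEC23B (0.91, SE 0.0645) and COPG1 (1.23, SE 0.0491) were called, as were SRP19, a protein of the signal recognition particle (1.07, SE 0.0363), and HSPA13 (1.39, SE 0.0435), a chaperone of the reticulum. SEC24D lay at 9.68, 10.08 and 10.65 in AHYP and at 5.98 to 8.78 elsewhere, with no overlap.

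Chosen in the same way, the imprinted gene PEG10 lay between 12.68 and 13.51 in AHYP (margin 1.47, SE 0.18), PLAGL1 between 11.61 and 12.44 (margin 1.24, SE 0.0921) and the noncoding RNA MEG3 between 8.90 and 10.73 (margin 1.06, SE 0.268). The call of MEG3 was lost without LWF05 or YLM18. PEG10 and MEG3 overlapped with hypothalamus, at up to 12.89 and 10.53. The chemokine receptor CXCR4 had a margin of 2.48 (SE 0.147) without overlap with any tissue, and neuroserpin (SERPINI1), a protease inhibitor of regulated secretion, had a margin of 2.81 (SE 0.133), also without overlap.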
